A study of Mus musculus with 7 samples.

Results

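Germline genes are genes whose products serve the making of eggs and sperm, and most of them are silent in somatic tissues. The 10 genes described here, Tex19.1, Rnf17, Mael, Stk31, Tdrkh, Asz1, Dazl, Sycp3, Hormad1 and Slc25a31, are 10 of the 55484 genes in the count table. They were found by their symbols, and the list had been chosen from earlier results of the same RNA-seq counts as germline genes with counts in stem cells, so their difference between the cell types is described and not tested. RNA-seq of 4 libraries of mouse embryonic fibroblasts (MEFs), somatic cells grown from mouse embryos, and 3 libraries of mouse embryonic stem cells (mESCs), pluripotent cells of the early embryo, was compared. The study gives the C57/Bl6 background for all its MEFs and mESCs, with no further allele, agent, passage or time named. The libraries held 6528643 to 11441278 counts and are named by cell type and falling total (MEF-A to MEF-D, mESC-A to mESC-C). The labels do not say whether they came from separate cultures or animals, so p-values measure only the spread between these libraries. The study's legends speak of biological replicates in equal number for both cell types, and which MEF library they leave out is not given in the sources used here. The extraction text of the labels describes blood stem cells, while a sort on THY1 for MEFs, and against THY1 with SSEA1 and EPCAM for mESCs, is given for the study's chromatin libraries.

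Many germline genes carry a promoter rich in CpG and are held silent in somatic cells by DNA methylation of that promoter and by a variant Polycomb complex, PRC1.6, that contains E2F6 together with MGA and MAX. MGA and MAX bind the E-box, a short palindromic sequence, and E2F6 binds E2F-type sequences. In male germ cells, PIWI proteins and their small RNAs, the piRNAs, silence transposable elements, in part within granules called nuage, while chromosome axis proteins bring homologous chromosomes together in meiosis.

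Of the markers of the 2 cell types, 8 of 8 pluripotency markers were higher and 8 of 8 fibroblast markers lower in mESCs (Benjamini-Hochberg adjusted p below 0.05 in the edgeR quasi-likelihood fit). Log2 fold changes ran from 5.64 for Dppa5a, 5.90 for Nanog and 6.83 for Utf1 to 7.27 for Tdgf1, 7.46 for Pou5f1 (8.05 without MEF-A) and 7.74 for Sox2, all genes of the pluripotent state. The fibroblast markers ran from -2.59 for Lum, -5.60 for Pdgfrb and -6.40 for Fbn1 to -7.72 for Col1a1, -7.73 for Col3a1 and -7.79 for Col1a2, genes of the matrix and of growth factor reception. Over all 16580 genes tested, 22.8% were higher and 25.0% lower in mESCs, 3785 and 4153 genes. Without scaling beyond library size the split was 5180 higher and 3345 lower, which shifted the median gene from 0.04 to 0.32 on the log2 scale. Thy1, the MEF sort marker, was lower in mESCs with a log2 fold change of -5.63, and Epcam, a marker of the mESC sort, was higher with 4.48. Fut4, the gene listed here for SSEA1, had too few counts to be tested. No other enzyme that can make SSEA1 was looked at. Of 6 blood markers, 3 had enough counts to be tested, and 2 of these, Cd53 (log2 fold change -3.74, -4.41 without mESC-B) and Lyz2, were lower in mESCs. The summed level of the 6 blood markers was 9.002 to 42.1 CPM (counts scaled to a common library total) in MEFs and 2.98 to 10.6 CPM in mESCs.

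The germline genes fell into 3 kinds. Tex19.1, Rnf17, Dazl, Mael, Stk31, Hormad1 and Sycp3 had at least 28 counts in every mESC library and at most 35 in any MEF library. Tdrkh overlapped between the cell types. Asz1 and Slc25a31 were near or under the detection floor of 3 counts, which stands for 0.262 to 0.460 CPM depending on the library and covers counting error only. For 8 of the 10 genes every mESC library lay above every MEF library in CPM, where 34.5% of all tested genes did so. Among these 8 is Asz1, with a single count in each mESC library. Asz1 and Slc25a31 had too few counts to be tested, so the share of the 10 genes and the 34.5% have unlike bases. The summed level of the 10 genes was 5.01 to 17.1 CPM in MEFs and 340 to 408 CPM in mESCs. In bulk RNA, fewer expressing cells and less RNA per cell cannot be told apart. The counts come from the 3′ end of transcripts, and no level is compared from gene to gene.

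**Figure D1:**
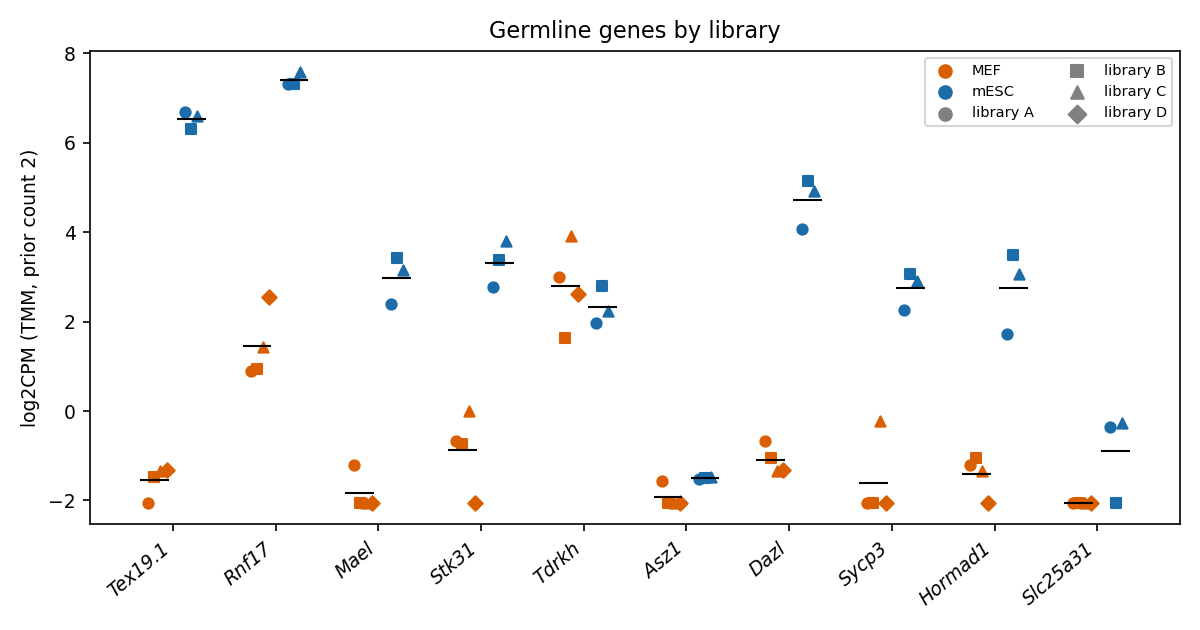
Levels of the 10 germline genes in each library, as log2CPM with TMM, edgeR's scaling for library composition, and a prior count of 2, where each point is a library, the black line is the mean and the lowest points stand for 0 counts. 7 genes are separated by cell type, Tdrkh overlaps, and Asz1 and Slc25a31 lie close to the floor.

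Tex19.1 (chromosome 11 of GRCm38, 121146143 to 121148319, plus strand), which protects germ cells and placenta against retrotransposons, had 945, 694 and 814 counts in mESC-A, mESC-B and mESC-C. The MEF libraries MEF-A to MEF-D held 0, 1, 1 and 1. No MEF library passed the floor. The mean was 104 ± 15.4 CPM in mESCs (SD, n = 3) against 0.0997 ± 0.0689 CPM in MEFs (SD, n = 4). Pooled over libraries, the mESC level was 1188 times the MEF level, with a 95% counting interval of 406 to 5765 that rests on 3 MEF counts. Tex19.1 shares 2.67% of its 50-base sequences with other annotated genes, most often with its near copy Tex19.2. Tex19.2 had 9, 33 and 19 counts in mESC-A to mESC-C and 1 count over all MEF libraries.

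Rnf17 (chromosome 14, 56402581 to 56525032, plus strand), a Tudor domain protein of germ cell granules, had 1470, 1390 and 1611 counts in mESC-A to mESC-C. In MEF-A to MEF-D it had 17, 14, 16 and 35 counts. Of the 7 separated genes it was the one with counts above the floor in all 4 MEF libraries, and MEF-D was the highest of these with 5.36 CPM beside 1.49 to 2.19 CPM in the others. Its mean was 189 ± 23.3 CPM in mESCs (SD, n = 3) and 2.64 ± 1.84 CPM in MEFs (SD, n = 4), a fitted log2 fold change of 5.95 (standard error 0.370). Standard errors here and below divide the size of the log2 fold change by the square root of the edgeR F statistic. With few MEF counts they can be smaller than the counting error.

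Mael (chromosome 1, 166201201 to 166238747, minus strand), a nuage protein needed for piRNA production and transposon silencing, had 46, 92 and 73 counts in mESC-A to mESC-C. MEF-A held 2 counts, and MEF-B, MEF-C and MEF-D held 0. Its mean in mESCs was 8.94 ± 2.99 CPM (SD, n = 3), and the pooled ratio of 153 has a counting interval of 41.9 to 1274.

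Stk31 (chromosome 6, 49395604 to 49469501, plus strand), a Tudor domain protein with a kinase domain found in spermatogonia and later germ cells, had 61, 89 and 116 counts in mESC-A to mESC-C. MEF-A to MEF-D held 4, 3, 5 and 0. Counts passed the floor in 2 MEF libraries, and the groups did not overlap, at 11.3 ± 4.06 CPM in mESCs (SD, n = 3) and 0.340 ± 0.279 CPM in MEFs (SD, n = 4).

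Tdrkh (chromosome 3, 94413273 to 94434668, plus strand), a mitochondrial Tudor and KH domain protein that helps trim piRNAs, had 34, 59 and 38 counts in mESC-A to mESC-C and 81, 24, 97 and 37 in MEF-A to MEF-D. Its levels were 4.15 to 7.32 CPM in mESCs and 2.61 to 13.3 CPM in MEFs, so the mESC values lay inside the MEF range. The fitted log2 fold change was -0.65 with a standard error of 0.512. The pooled MEF level was 126% of the mESC level, and 94.7% without MEF-C. Its exons overlap those of the antisense gene Oaz3, a testis gene. Tdrkh shares 34.7% of its 50-base sequences with other annotated genes, most often with Oaz3. Oaz3 had 24 counts over the MEF and 41 over the mESC libraries, where Tdrkh had 239 and 131. The strand setting of the counting is not given in the sources used here, so the share of antisense reads in the Tdrkh counts was not tested.

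Asz1 (chromosome 6, 18050964 to 18109061, minus strand), a nuage protein between the mitochondria of germ cells, had 1 count in each mESC library and 1 in MEF-A. All 7 libraries were at or under the floor, and no fold is given. A difference in Asz1 was not detectable at this depth.

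Dazl (chromosome 17, 50279395 to 50293636, minus strand), an RNA-binding protein that drives translation in germ cells, had 153, 308 and 253 counts in mESC-A to mESC-C. MEF-A to MEF-D held 4, 2, 1 and 1 counts, with MEF-A alone above the floor. The mean was 30.3 ± 10.3 CPM in mESCs (SD, n = 3) and 0.214 ± 0.0967 CPM in MEFs (SD, n = 4), a fitted log2 fold change of 6.68 (standard error 0.437).

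Sycp3 (chromosome 10, 88459569 to 88473236, plus strand), the axial element protein of meiotic chromosomes, had 42, 71 and 62 counts in mESC-A to mESC-C. MEF-C held 4 counts and the other MEF libraries 0. The pooled ratio was 63.6 with a counting interval of 24.4 to 236. Exons of Sycp3 overlap the antisense gene Chpt1, a phospholipid enzyme. Sycp3 shares 43.0% of its 50-base sequences with other annotated genes, most often with Chpt1. Chpt1 had 106 to 221 counts in each library, from 14.5 to 24.4 CPM in MEFs and from 20.6 to 27.2 CPM in mESCs. MEF-A, MEF-B and MEF-D had 221, 200 and 159 Chpt1 counts beside 0 Sycp3 counts.

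Hormad1 (chromosome 3, 95559677 to 95587671, plus strand), an axis protein that monitors synapsis, had 28, 96 and 69 counts in mESC-A to mESC-C. MEF-A to MEF-D held 2, 2, 1 and 0, all under the floor. The mean was 8.19 ± 4.35 CPM in mESCs (SD, n = 3), and the pooled ratio was 56.1 with a counting interval of 23.6 to 175. It shares 22.9% of its 50-base sequences with other annotated genes, most often with Gm15529. Reads that lie wholly in such stretches could map to more than 1 place and would then not be counted, but the alignments were not looked at. Gm15529 itself had 5, 78 and 62 counts in mESC-A to mESC-C and 0 in every MEF library. The 2 genes were thus lowest in the same mESC library, and how their reads were divided was not tested.

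Slc25a31 (chromosome 3, 40708855 to 40726096, plus strand), the ADP/ATP carrier of meiotic and later male germ cells, had 5, 0 and 5 counts in mESC-A to mESC-C and 0 in every MEF library. The 10 pooled mESC counts against 0 MEF counts give a lower 95% counting limit of 3.26 for the ratio, and the pooled level was 4.84 times a floor of 3 counts over all MEF libraries. It passed the floor in 2 mESC libraries and had 0 counts in mESC-B, so the cell types overlap at 0.

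The germline genes were also compared among the 3 mESC libraries. Of the 8 genes with at least 10 counts in each mESC library, mESC-A was the lowest for 6 (Rnf17 and Tex19.1 being lowest in mESC-B) and mESC-B the highest for 5. The median ratio of the highest to the lowest mESC library was 1.90 over these 8 genes and 1.46 over the 14319 genes with as many counts, both including counting error, which is larger at low counts. Of those 14319 genes, 29.9% were lowest in mESC-A and 30.5% were highest in mESC-B. Hormad1 had the widest range with a ratio of 3.49, and Rnf17 the narrowest with 1.25. For Mael, Dazl and Hormad1 the 95% counting intervals of mESC-A and mESC-B did not overlap, and for Tex19.1 they did not overlap in the opposite order, whereas those of Tdrkh did overlap. Over 57 genes of the 5 germline lists described below, mESC-A was lowest for 29.8% and the median ratio was 1.79. The counts per library with TMM scaling were the same, 6 lowest in mESC-A and 5 highest in mESC-B.

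**Figure D2:**
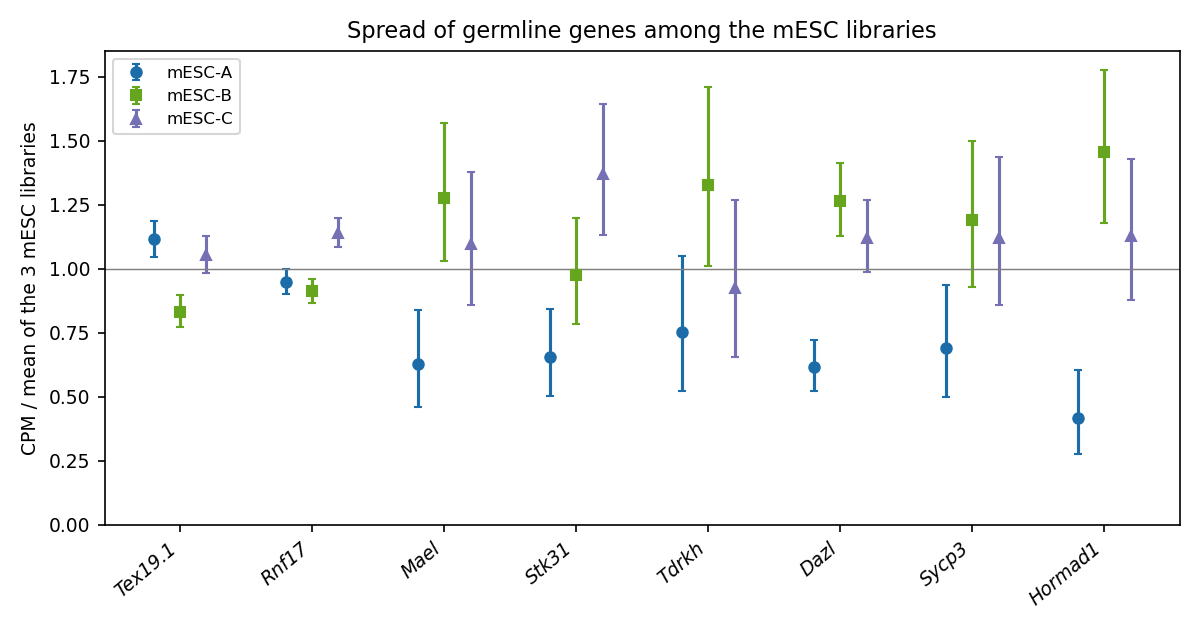
CPM of 8 germline genes in each mESC library, divided by the mean of the 3 libraries, with bars for the 95% Poisson counting interval. mESC-A lies lowest for 6 genes, and Tex19.1 and Rnf17 show the narrower intervals and the smaller spread.

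The counts left in MEFs were set beside those of the pluripotency markers. Pooled over libraries, the MEF level was a median of 1.42% of the mESC level over the 10 germline genes and 0.536% over 8 pluripotency markers, whose shares ran from 0.385% to 1.64%. The median of the 10 includes Tdrkh, which was not separated, and Asz1 and Slc25a31, whose shares rest on too few counts to be measured. Tex19.1, with 0.0842% (95% counting interval 0.0174 to 0.246), lay under the share of every pluripotency marker. Rnf17 (1.26%, 1.004 to 1.57) and Dazl (0.771%, 0.333 to 1.52) lay within the range of the markers. Stk31 stood at 3.10% (1.60 to 5.42) and Hormad1 at 1.78% (0.579 to 4.16). Both lay above the highest marker share, with intervals that reach into the range of the markers. Sycp3 and Mael owe their MEF share to 1 library each, and both shares were 0 without it (MEF-C for Sycp3, MEF-A for Mael). Whether these counts come from MEFs or from other cells in the cultures was not tested.

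**Figure D3:**
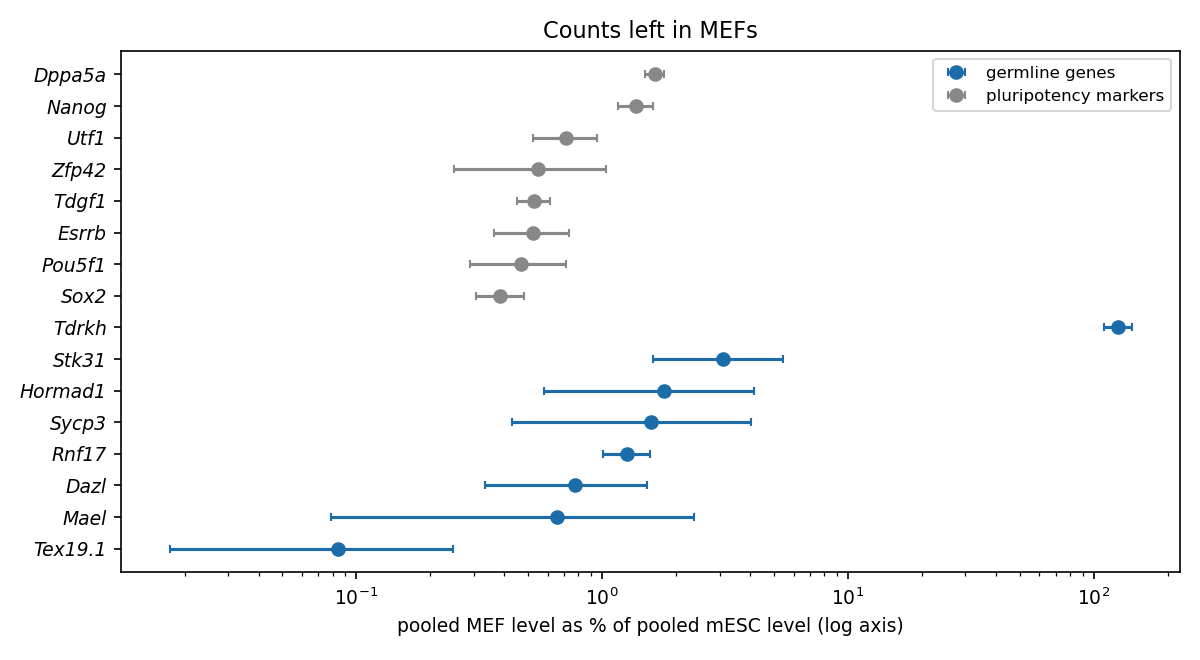
Pooled MEF level as a percentage of the pooled mESC level on a log axis, for 8 germline genes and 8 pluripotency markers, with bars for the 95% Poisson interval of the MEF counts. Tex19.1 lies lowest and Tdrkh, at 126%, is the one gene above 100.

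Further germline genes were grouped by stage. Their calls, here and in the lists below, stand beside 22.8% higher and 25.0% lower among all genes tested. Of 22 further genes of the piRNA pathway and nuage, 15 could be tested and 12 were higher in mESCs, with 0 lower (edgeR, adjusted p under 0.05). At an unadjusted p under 0.05, 1 was lower, the Tudor protein Tdrd7 (log2 fold change -1.75, called without mESC-A), and 0 were lower by DESeq2. The largest differences called were those of Gpat2, a mitochondrial acyltransferase homologue needed for piRNAs (log2 fold change 6.12, standard error 0.933), the Tudor protein Tdrd12 (5.92, 0.486) and the helicase Mov10l1 (5.42, 0.973). Gpat2 rests on 1 MEF count and ranged from 5.48 without mESC-A to 7.75 without MEF-B, and Mov10l1 from 4.68 without mESC-B to 6.31 without MEF-C, so their order depends on single libraries. The smallest with libraries that did not overlap were Exd1, a piRNA biogenesis factor (1.52, and not called when any library but MEF-A was left out), the helicase Ddx4 (2.54) and Tex15 (2.56), which acts in transposon silencing. Tdrd12 stood at 28.8 ± 2.55 CPM in mESCs (SD, n = 3) against 0.382 ± 0.316 CPM in MEFs (SD, n = 4). The list's tested genes had a median log2 fold change of 2.74, beside 0.04 for all genes tested. A gene nearly silent in MEFs passes the count filter only through its mESC counts. This median and the count of 0 lower therefore follow in part from the filter, and the same holds for the germline lists below.

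Of 31 meiotic genes, 23 could be tested and 17 were higher in mESCs, with 0 lower by edgeR, by DESeq2 and at an unadjusted p under 0.05. Hsf2bp, which brings recombinases to meiotic breaks, had 119 ± 17.2 CPM in mESCs (SD, n = 3) and 1.23 ± 0.559 CPM in MEFs (SD, n = 4), a difference of 6.33 in the fit on the log2 scale (standard error 0.307, edgeR). Syce1 (6.19, standard error 0.577) and Syce3 (5.87, standard error 0.946), both of the central element of the synaptonemal complex, were next in this fit. Syce3 rests on 1 MEF count and reached 7.57 without MEF-C, above Hsf2bp. The smallest were the mismatch repair protein Mlh3 (1.15), Ccdc36, which acts in break formation (1.16, and not called without MEF-A, MEF-D or mESC-C), and Syce2, also of the central element (1.83).

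Of 23 genes of germ cell specification and regulation, 15 could be tested and 10 were higher, with 0 lower by edgeR, by DESeq2 and at an unadjusted p under 0.05. Stra8, which starts meiosis under retinoic acid, had a log2 fold change of 7.88 (standard error 0.586, and 8.67 without MEF-A), with 28.5 ± 11.8 CPM in mESCs (SD, n = 3) against 0.0709 ± 0.0862 CPM in MEFs (SD, n = 4). Sohlh2, a factor of early germ cell differentiation, had 7.21 (standard error 0.894), and Prdm14, a factor of primordial germ cells and of pluripotency, had 6.33 (standard error 0.839). They rest on 1 and 2 MEF counts, and were 8.91 for Sohlh2 without MEF-C and 8.61 for Prdm14 without MEF-A. The smallest were Boll, a relative of Dazl (1.27, and not called when any library but MEF-A was left out), the transcription factor subunit Taf4b (2.48) and the receptor Kit (2.60).

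Genes of later germ cells were next. Of 22 postmeiotic sperm genes, the packaging proteins and parts of the acrosome and tail, 2 could be tested and 0 passed the test in either direction (1 at an unadjusted p under 0.05, 0 by DESeq2, and 1 each without MEF-A and without mESC-C), and their summed level was 2.73 to 4.98 CPM in MEFs and 7.44 to 8.44 CPM in mESCs. Of 18 oocyte genes 6 could be tested and 3 were higher, with 0 lower by edgeR, by DESeq2 and at an unadjusted p under 0.05. Ooep, Khdc3 and Tle6 form part of the maternal complex under the oocyte cortex. Ooep reached 223 ± 47.5 CPM in mESCs (SD, n = 3, log2 fold change 7.24, standard error 0.361). Khdc3 had a log2 fold change of 8.35 (standard error 0.543) and Tle6 of 1.48. The value of Khdc3 rests on 2 MEF counts and ranged from 7.86 to 8.89 with each library left out. None of 12 markers of 2-cell-like cells, a rare state of mESC cultures, had enough counts to be tested, and their summed level was at most 1.49 CPM in any library. Of 5 markers of testis somatic cells, 1 could be tested, and 0 passed (0 at an unadjusted p under 0.05 and 0 by DESeq2).

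**Figure D4:**
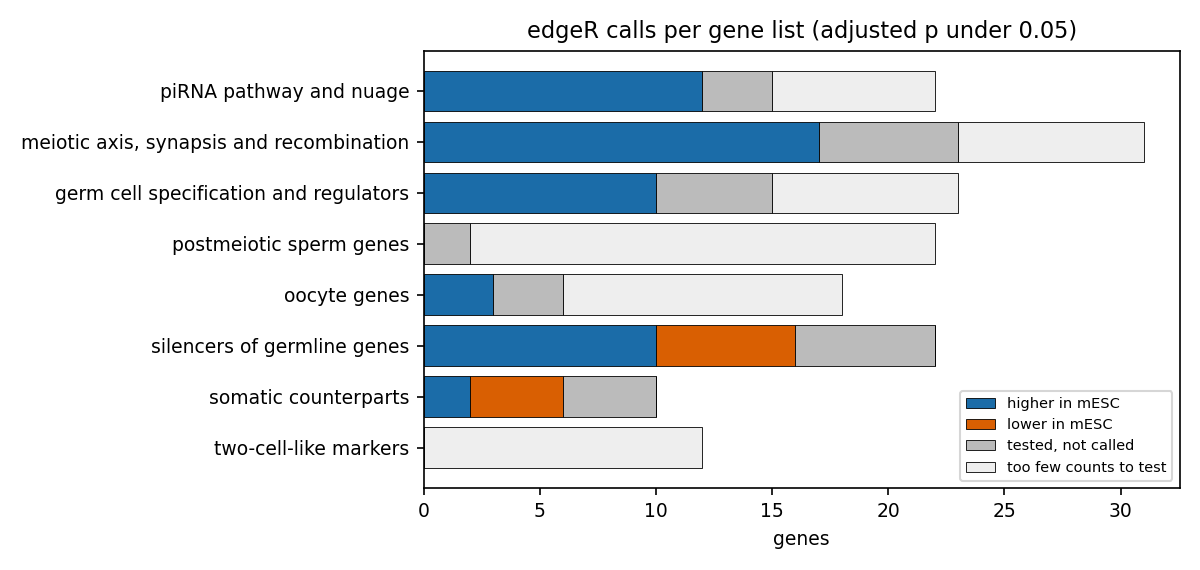
Number of genes in each of 8 lists that were higher in mESCs, lower in mESCs, tested but not called, or without enough counts to be tested, by edgeR at an adjusted p under 0.05. The piRNA, meiotic and germ cell lists hold 12, 17 and 10 higher genes, and most postmeiotic sperm genes could not be tested. Among all genes tested, 22.8% were higher and 25.0% lower.

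The somatic counterparts of germline genes were measured beside them. Slc25a4 and Slc25a5, the ADP/ATP carriers of somatic cells and paralogues of Slc25a31, had 1129 ± 66.5 and 564 ± 121 CPM in MEFs (SD, n = 4) and 291 ± 43.7 and 1132 ± 251 CPM in mESCs (SD, n = 3). Slc25a4 was lower in mESCs (log2 fold change -2.24, standard error 0.132) and Slc25a5 higher (0.72, standard error 0.196, adjusted p = 0.0113, edgeR), a call that was lost without mESC-A (adjusted p = 0.0673). The cohesin subunits Rad21 (0.86, higher) and Stag2 (-0.64, lower, but not called without scaling or without MEF-B, MEF-D, mESC-A or mESC-B), and Ldha (-1.69) and Rpl10 (-0.78), which have germline paralogues, also passed. Smc1a, Stag1 and Pdha1 did not pass, with log2 fold changes of -0.16, 0.17 and -0.13. Pgk1, the somatic counterpart of a sperm glycolytic enzyme, had -0.63 (adjusted p = 0.0505, edgeR), with every mESC library below every MEF library. It was called by DESeq2 (adjusted p = 0.0387) and with the filter of 10 counts (adjusted p = 0.0432, edgeR), which give 5 lower genes in place of 4, and without MEF-D (adjusted p = 0.0446, edgeR).

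Of 22 silencers of germline genes, 10 were higher and 6 lower in mESCs, where 22.8% of all tested genes were higher and 25.0% lower. The count of 6 lower is thus near the share of all genes, and 3 were lower without scaling beyond library size. E2f6 had 14.6 ± 2.89 CPM in MEFs (SD, n = 4) and 6.85 ± 2.08 CPM in mESCs (SD, n = 3), which was -1.37 in the edgeR fit on the log2 scale (standard error 0.305, adjusted p = 0.00364). Yaf2, a subunit of PRC1.6, was lower with a log2 fold change of -2.42, and its paralogue Rybp was higher with 1.85. Dnmt3l, a cofactor of de novo methylation that is itself expressed in germ cells, was higher with 6.80 (7.71 without MEF-A), and Dnmt3b, a de novo methyltransferase, with 4.32. Dnmt3a, the other de novo methyltransferase, was lower with -0.72, and did not pass without scaling (adjusted p = 0.0607, edgeR). Max, the E-box partner of Mga, was tested and did not pass, while Mga was higher with 1.63.

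The genes whose log2CPM over the 7 libraries lay nearest to the median of the 10 germline genes, among all listed genes, were Syce1 (Euclidean distance 0.884), Prdm14 (1.29) and Sohlh2 (1.39). The median profile itself ran from -2.05 to -1.21 log2CPM in MEFs and from 2.32 to 3.40 in mESCs.

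The promoters of the germline genes were read from RefSeq on GRCm38.p6, where 9 of the 10 genes have an entry and Rnf17 has none. In the 250 bases before the start site, the E-box CACGTG was present in 5 of the 9 genes, against 6.86% of 27025 genes and 6.02% of 32851 promoters in the same table. An E2F-type sequence, GCGGGA or its reverse complement TCCCGC, was present in 4 of the 9, against 18.8% of genes and 16.9% of promoters, and against 4 of 8 somatic counterparts and 7 of 19 silencers with a promoter, lists with counts in both cell types. Both were present in Mael, Sycp3 and Hormad1, 33.3% of the genes with a promoter, against 1.98% of genes. Of the somatic counterparts and silencers with a promoter, 12.5% and 10.5% held both. Both strands were searched, and the E-box and E2F-type letters do not overlap each other in the stretches shown.

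The stretches below were chosen because they hold these short sequences, in capitals, with Tdrkh, whose levels overlap between the cell types, shown as one of the genes without. Positions count back from -1, the base before the start.
Sycp3, chr10:88459427-88459567, plus strand: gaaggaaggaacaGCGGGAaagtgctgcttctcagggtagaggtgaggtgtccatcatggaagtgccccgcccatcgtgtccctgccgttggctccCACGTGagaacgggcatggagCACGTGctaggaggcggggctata
Hormad1, chr3:95559567-95559676, plus strand: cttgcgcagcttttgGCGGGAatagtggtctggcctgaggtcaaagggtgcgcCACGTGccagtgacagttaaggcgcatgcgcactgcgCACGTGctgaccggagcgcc
Mael, chr1:166238875-166238994, minus strand: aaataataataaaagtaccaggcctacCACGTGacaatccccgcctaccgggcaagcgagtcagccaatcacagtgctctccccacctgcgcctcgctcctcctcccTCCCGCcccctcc
Slc25a31, chr3:40708721-40708820, plus strand: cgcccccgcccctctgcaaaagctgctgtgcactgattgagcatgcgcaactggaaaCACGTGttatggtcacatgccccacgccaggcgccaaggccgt
Stk31, chr6:49395429-49395528, plus strand: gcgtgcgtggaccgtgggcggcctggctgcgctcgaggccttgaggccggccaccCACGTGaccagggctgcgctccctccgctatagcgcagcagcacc
Tex19.1, chr11:121146043-121146142, plus strand: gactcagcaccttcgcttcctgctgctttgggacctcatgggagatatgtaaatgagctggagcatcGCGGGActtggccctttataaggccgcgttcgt
Tdrkh, chr3:94413134-94413243, plus strand: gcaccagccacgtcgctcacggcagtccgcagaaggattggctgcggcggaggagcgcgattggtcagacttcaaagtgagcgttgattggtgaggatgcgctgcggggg

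Sycp3 and Hormad1 each hold a pair of E-boxes, at -64 and -43 in Sycp3 and at -57 and -20 in Hormad1, with the E2F-type sequence further from the start, at -147 and -95. Mael has the E-box further away, at -223, and the E2F-type sequence at -143. Stk31 and Slc25a31 have 1 E-box at -55 and -93, and Tex19.1 has the E2F-type sequence alone, at -33. Dazl, Asz1 and Tdrkh held neither in this window. The genes with an E-box include 4 that were separated by cell type and Slc25a31, which was near the floor. The observed to expected CpG ratio of the 250 bases before the start was 0.639 to 0.921, against a median of 0.373 over all promoters. Taken per gene, its median was 0.75 for these genes and 0.403 for all genes. It was as high in lists with counts in both cell types, at 0.869 for the silencers and 0.728 for the somatic counterparts. The E-box was present in 7 of 16 genes of the piRNA list with a promoter, in 5 of 26 of the meiotic list, in 4 of 19 silencers, in 1 of 8 somatic counterparts and in 0 of 19 of the postmeiotic list. A match describes letters only.

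**Figure D5:**
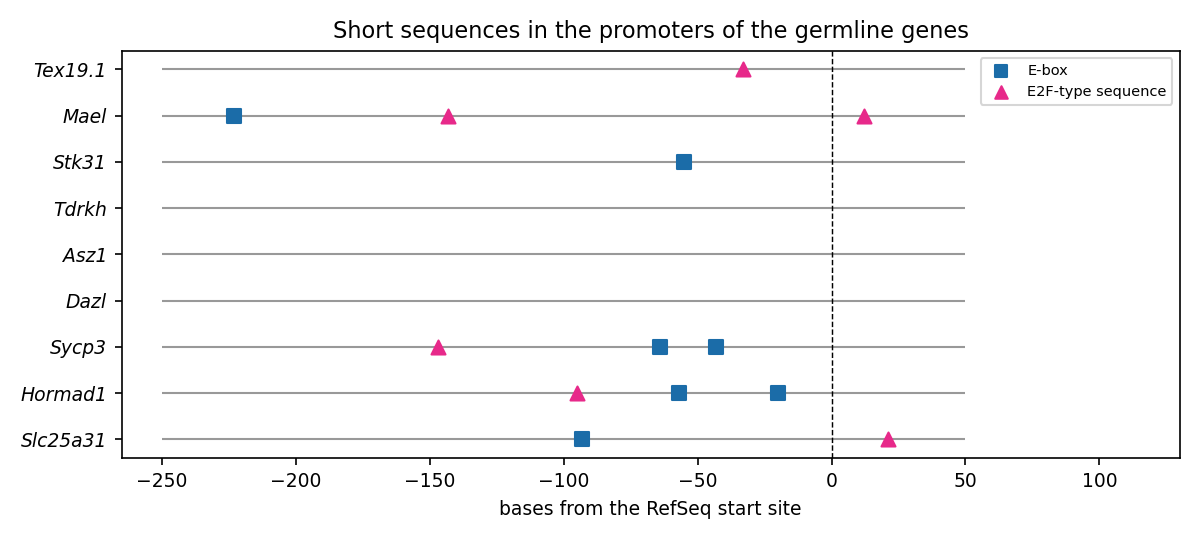
Position of each E-box and E2F-type sequence from 250 bases before to 50 bases after the start site, for the 9 germline genes with a RefSeq promoter. Sycp3 and Hormad1 each show a pair of E-boxes within 64 bases of the start, and Dazl, Asz1 and Tdrkh show none.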

How the data were processed

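RNA was primed at the poly(A) tail, with a molecular identifier per molecule, and sequenced from the 3′ end. The authors trimmed the reads after demultiplexing, mapped to mm10 by STAR, merged molecules with Je and took unique alignments over exons with featureCounts. The counts were deposited as whole numbers, not normalized. The annotation release and strand setting are not given in the sources used here. Column names give the cell type but not the sample, and 0 value columns were left unused. The members and lists were chosen with earlier results of these data known.

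All 7 libraries entered edgeR 4.0.16 (R 4.3.3) with TMM scaling, filterByExpr and the quasi-likelihood test with no covariate (Benjamini-Hochberg adjusted p below 0.05), and 8 of the 10 members passed the filter. CPM used library totals, log2CPM a prior count of 2, and counting intervals are exact Poisson or binomial at 95%. A test on simulated data preceded the fit. Named genes are the members, the 3 largest and 3 smallest fold changes per list among called genes whose libraries do not overlap, all somatic counterparts and sort markers, and the 3 genes nearest the members' median profile. Genes named outside this rule (Mga, Max, Lyz2, Tdrd7, Izumo1, Ldhc and the overlapping or copied genes) were chosen after their values were seen. Gene coordinates follow GENCODE M21 (GRCm38), and promoters from RefSeq on GRCm38.p6. Alternatives were DESeq2 1.42.0, other scalings, filters and prior counts, pooled ratios, a 300-base promoter window and each library left out.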

Additional observations from a re-analysis of the deposited data

Results flagged for a closer look

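In 8 of 63 genes looked at, 1 MEF library stood far from the rest (gap to the nearest library over the range, above Dixon's 95% critical value). Chance flags about 1 in 20 such groups, here 3.15 genes. In 7 of the 8 the other MEF libraries were all at 0 and the value rests on 1 to 4 counts, where any count gives the largest possible gap.

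Among the germline genes described above, Mael had 0.175 CPM in MEF-A from 2 counts, Sycp3 had 0.547 CPM in MEF-C from 4 counts and Asz1 had 0.0874 CPM in MEF-A from 1 count. Of the further germline genes, Gpat2 had 0.109 CPM in MEF-B, Syce3 had 0.137 CPM and Sohlh2 had 0.137 CPM in MEF-C, each from 1 count, and Prdm14 had 0.175 CPM in MEF-A from 2 counts. The cohesin subunit Stag1 was the exception, low in MEF-C with 36.8 CPM from 269 counts, where the next lowest MEF library had 69.5 CPM.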

How the results depend on the processing

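No paired analysis was possible, because the number after the cell type is the same in every column name and does not tell the samples apart. The labels' replicate numbers are not tied to the columns. The median log2CPM difference of the 10 germline genes, 4.26, was 5.55 with a prior count of 0.5 and 6.15 as a ratio of pooled CPM, since low MEF counts make it depend on the prior. The piRNA genes lower in mESCs went from 0 to 1 (Tdrd7) with no filter beyond 1 count, and ranged from 0 to 1 with each library left out, the 1 arising without mESC-A. The postmeiotic genes higher in mESCs went from 0 to 1 with no scaling (Izumo1), with no filter (Ldhc) and with a minimum of 10 counts in all libraries of a cell type (Izumo1), and ranged from 0 to 1 with each library left out, the 1 arising without MEF-A (Izumo1) and without mESC-C (Ldhc). Silencers lower in mESCs went from 6 to 3 without scaling. Somatic counterparts higher in mESCs went from 2 to 1 without mESC-A. Smc1a and Pdha1 turned to 0.13 and 0.16 without scaling and Stag1 ranged from -0.0078 (without MEF-C) to 0.24 with each library left out, none of them called. Of 620 values of named genes, 591 kept direction and call, 23 lost it (Exd1, Ccdc36, Boll, Dnmt3a, Slc25a5, Stag2), 3 gained it (Pgk1) and 3 reversed. Of 119 log2CPM differences of the germline genes, 102 moved by less than the spread and 17 by more. All 17 came with another prior count or with the ratio of pooled CPM, which has no prior count. The MEF shares of Mael, Sycp3, Asz1, Tdrkh and Rnf17, not among the 119, left their counting intervals in some settings. Apart from the prior count, the cause of these shifts was not tested. At these depths, 3 counts or fewer limit Asz1, Slc25a31 and most MEF values.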
